A study of Mus musculus with 24 samples.

Results

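Matrix metalloproteinases (MMPs) are secreted or membrane-anchored zinc proteases that cut the proteins of the extracellular matrix, and tissue inhibitors of metalloproteinases (TIMPs) are the small secreted proteins that bind and block them. Most MMPs are made as inactive proenzymes, so RNA levels do not show how much protease was active. In bone, MMPs take part in collagen turnover by osteoblasts and osteoclasts, and in tumors they are made by cancer cells and by the fibroblasts, macrophages and vessels around them. The 9 genes described here, out of 55401 Ensembl identifiers with counts, are Mmp13 (a collagenase), Mmp3 and Mmp10 (stromelysins), Mmp12 (macrophage elastase), Mmp2 (a gelatinase), Mmp14 (a membrane-type MMP that activates the Mmp2 proenzyme) and the inhibitors Timp1, Timp2 and Timp3. They were chosen by name, through the symbols that GENCODE M21 gives these identifiers, and all 9 passed the filter on low counts in every comparison.

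RNA was sequenced from 24 tumors of the mouse prostate adenocarcinoma line TC2Ras, grown in male C57/BL6 mice of 8 to 10 weeks to test a plasmid coding for the cytokine IL-27 and cabozantinib (cabo), a kinase inhibitor, against prostate cancer in bone. Subcutaneous tumors were taken 1 week after implantation from mice given an empty vector (control, n = 2) or the IL-27 vector (n = 2). Tumors of the luciferase-bearing line TC2Ras-Luc in the tibia were taken on day 14, with 3 tumors a group, or at the ethical endpoint (EOS), with 2 tumors a group. The 4 intratibial treatments were empty vector with PvP, the vehicle of cabo (control), IL-27 vector with PvP (IL-27), empty vector with cabo (cabo), and IL-27 vector with cabo (IL-27+cabo). Plasmid was delivered to muscle by ultrasound, and daily gavage of cabo or vehicle ended 14 days after implantation, so EOS tumors had grown on without the drug. All tumors came from 1 cell line. Intratibial tumors are named by the mouse numbers in the labels (M3, for example) and subcutaneous tumors by replicate number. Bulk tumor RNA cannot tell apart fewer cells of a type and less RNA per cell. Levels are given as counts scaled to TMM-normalized library size (CPM), and between genes as counts scaled to exonic length as well (RPKM). Changes are log2 fold changes with their SE from edgeR's quasi-likelihood test, and a gene was called where its p, adjusted by Benjamini-Hochberg over all genes tested, was under 0.05.

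Libraries held 63729005 to 83782258 counts. The prostate marker Pbsn had a mean of 0 CPM in every group, whereas Krt8, an epithelial keratin, averaged 44.1 CPM in subcutaneous control tumors, 3.14 CPM in subcutaneous IL-27 tumors and 40.5 CPM in day 14 controls. The library of tumor M20, on day 14 with IL-27+cabo, stood apart with a Pearson's r across genes of 0.908 with each of its group mates, which had an r of 0.976 with each other. In the subcutaneous comparison the fold change followed the GC content of the transcript, with a median of 0.98 on the log2 scale in the decile of genes with the lowest GC content and -2.89 in the decile with the highest. The fold changes of the 9 genes in subcutaneous tumors are therefore also given with a correction for GC content and length, and those of Mmp13, Mmp12, Mmp14 and Timp1 with IL-27+cabo on day 14 without M20 as well.

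Mmp13, Mmp12, Mmp3 and Mmp10 lie in a cluster of 10 MMP genes that spans 427 kb of chromosome 9 (GRCm38, chr9:7272514-7699585), of which 7 passed the filter in intratibial tumors. The other members lie singly, Mmp2 at chr8:92827291-92853420, Mmp14 at chr14:54431612-54445364, Timp1 at chrX:20870166-20874735, Timp2 at chr11:118301069-118355740 and Timp3 at chr10:86300372-86349506. Timp2 is read from the minus strand and the other 8 from the plus strand. Mmp12 overlaps Mmp1b, Timp1 overlaps Syn1 and Timp3 overlaps Syn3 on opposite strands, and Timp2 overlaps Cep295nl on its own strand. Since it is not stated whether the counting used strand, reads of such pairs cannot be told apart. Mmp1b had a median of 0 RPKM in intratibial tumors.

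RefSeq start sites on GRCm38.p6 were given for 8 of the 9 genes, and the 120 bases before the start of the 4 clustered genes and of 4 genes outside the cluster are shown for the motifs found in them. For Mmp12, which has 2 listed starts, the second is shown, since the window of the first, next to the start of the gene, held none of the motifs. Capitals mark TGANTCA, the letters bound by AP-1 (Fos and Jun factors), and TATAAA, the core letters of the TATA box, which were searched on both strands. The printed stretches are chr9:7272394-7272513 for Mmp13, chr9:7445702-7445821 for Mmp3, chr9:7502222-7502341 for Mmp10 and chr9:7347254-7347373 for Mmp12, all on the plus strand.
Mmp13: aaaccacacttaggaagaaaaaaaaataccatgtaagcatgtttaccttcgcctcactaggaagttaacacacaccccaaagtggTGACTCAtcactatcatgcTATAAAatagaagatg
Mmp3: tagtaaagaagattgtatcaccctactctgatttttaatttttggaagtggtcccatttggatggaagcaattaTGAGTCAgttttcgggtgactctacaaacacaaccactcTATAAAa
Mmp10: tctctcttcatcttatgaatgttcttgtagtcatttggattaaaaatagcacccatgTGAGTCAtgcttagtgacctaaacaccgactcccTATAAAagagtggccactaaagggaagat
Mmp12: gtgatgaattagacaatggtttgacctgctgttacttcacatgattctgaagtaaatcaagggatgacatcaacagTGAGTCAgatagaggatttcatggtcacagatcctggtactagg
TGANTCA stood 35 bases before the start in Mmp13, 46 in Mmp3 and 63 in Mmp10, counted from the first base of the match, whereas 6.75% of 32851 windows of 250 bases before RefSeq starts held it. In the second window of Mmp12 the match stood 44 bases before the start. That window was picked for its match, so it cannot be set against this share. TATAAA was found in Mmp13, Mmp3 and Mmp10 and in 12.4% of all windows.

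Neither motif was found in the windows of Mmp14 or the inhibitors, where capitals mark GGGCGG, a GC box, or its reverse complement CCGCCC. These stretches are chr14:54431478-54431597 for Mmp14, chrX:20870046-20870165 for Timp1 and chr10:86300292-86300411 for Timp3, on the plus strand, and chr11:118355412-118355531 on the minus strand for Timp2.
Mmp14: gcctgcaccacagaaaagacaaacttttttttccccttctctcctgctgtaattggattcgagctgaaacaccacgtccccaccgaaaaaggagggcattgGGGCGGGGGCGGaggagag
Timp1: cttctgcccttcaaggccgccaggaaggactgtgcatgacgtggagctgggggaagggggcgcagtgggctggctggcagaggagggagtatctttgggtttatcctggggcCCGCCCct
Timp2: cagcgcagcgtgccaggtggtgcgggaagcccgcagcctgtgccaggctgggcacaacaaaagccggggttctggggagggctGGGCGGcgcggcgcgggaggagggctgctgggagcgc
Timp3: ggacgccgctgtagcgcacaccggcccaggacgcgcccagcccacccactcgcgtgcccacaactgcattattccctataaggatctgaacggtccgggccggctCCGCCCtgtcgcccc
Across all windows, 32.7% held GGGCGG on either strand. A match describes the letters of a window and not a bound site.

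In bone, Timp2, Mmp14 and Mmp2 were the most abundant of the 9 genes and varied little between tumors, whereas Mmp12, Mmp10 and Mmp13 varied most. By length-scaled level over the 20 intratibial tumors, Timp2 was highest with a median of 215 RPKM, followed by Mmp14 at 88.6, Mmp2 at 63.7, Timp1 at 43.7, Mmp10 at 32.2, Timp3 at 11.7, Mmp3 at 11.1, Mmp13 at 4.69 and Mmp12 at 3.77 RPKM. Among 27 genes of the family, 23 passed the filter in these tumors, and Mmp9, a gelatinase that is not among the 9, had a median of 34.5 RPKM.

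**Figure D1:**
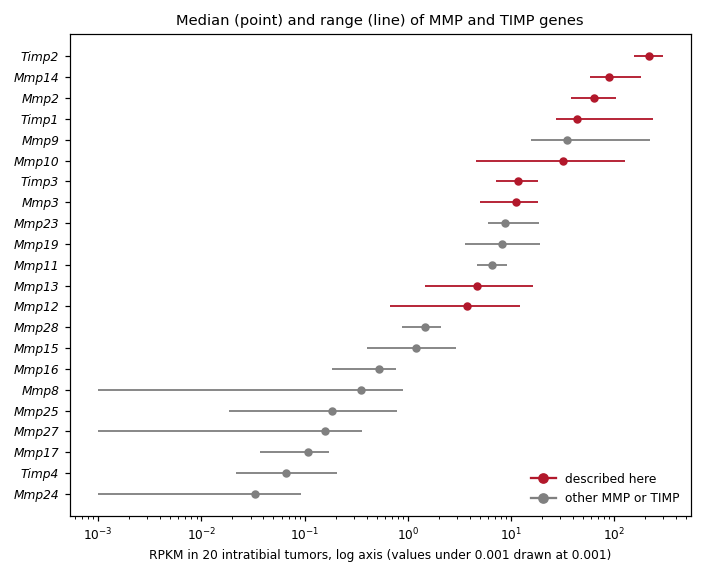
Length-scaled levels (RPKM, log axis) of MMP and TIMP genes in the 20 intratibial tumors, with a point at the median and a line over the range, for genes with a median above 0. Timp2 and Mmp14 are the highest of the 9 genes described, with medians of 215 and 88.6 RPKM, and Mmp13 and Mmp12 the lowest, at 4.69 and 3.77 RPKM.

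The SD of log2 CPM was 1 for Mmp12, 0.98 for Mmp10 and 0.86 for Mmp13, above the median of 0.54 over all genes, and 0.23 for Timp2, 0.33 for Mmp14, 0.37 for Mmp2 and 0.37 for Timp3, below it. Timp1 had an SD of 0.66 and Mmp3 of 0.46. Mmp10 ran from 7.86 CPM in M28 to 217 CPM in M6, a 27.6-fold range, and Timp2 from 610 to 1150 CPM, a 1.88-fold range. When the 8 intratibial groups were ordered by their mean for each of the 9 genes, 6 of 63 neighbouring pairs of groups had values that did not overlap. Ordering by the mean makes neighbours the closest groups, so this count cannot show whether groups differed. The same count was not made over all genes.

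**Figure D2:**
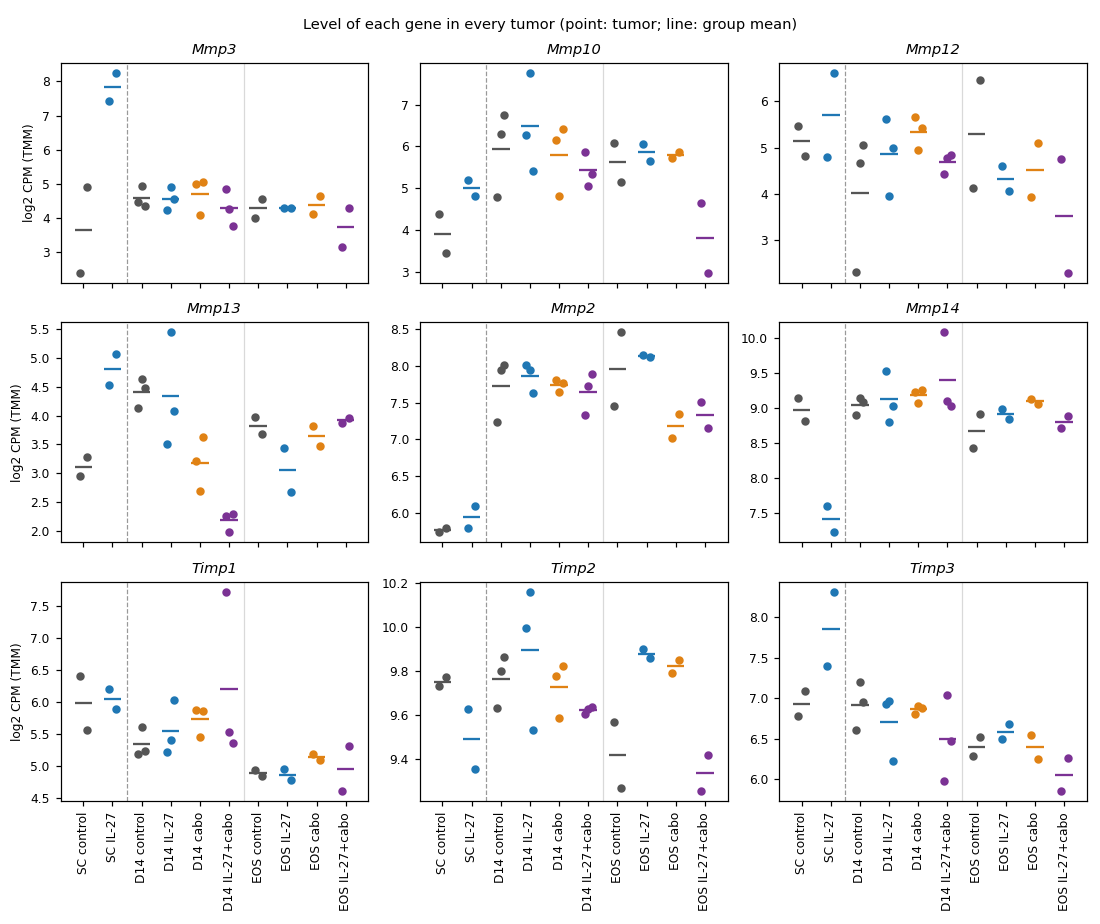
TMM-normalized level (log2 CPM) of each of the 9 genes in each of the 24 tumors, one panel a gene, one point a tumor and a line at the mean of each group (SC, subcutaneous; D14, day 14). Mmp13 has a mean of 2.17 in day 14 IL-27+cabo tumors and 4.42 in day 14 controls, and Mmp3 a mean of 7.83 in subcutaneous IL-27 tumors.

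The subcutaneous comparison addressed what differed with the IL-27 vector outside bone. Mmp3 and Mmp13 rose and Mmp14 fell in IL-27 tumors, 3 of the 9 genes called, where 20% of 19360 genes were called, 3.52% of them higher and 16.5% lower. Mmp3, which cuts proteoglycans and laminin and activates other proenzymes, stood at 5.29 and 30.2 CPM in the control tumors and at 172 and 302 CPM in the IL-27 tumors. Both IL-27 tumors lay above both controls, and on the log2 scale the controls differed among themselves more than the IL-27 tumors did. The log2 fold change of Mmp3 was 3.74 (SE 0.82, n = 2 and 2, edgeR adjusted p = 0.0205). Mmp13, which cuts fibrillar collagen, was at 7.66 and 9.64 CPM in controls and at 23.2 and 33.6 CPM with IL-27, a log2 fold change of 1.71 (SE 0.39, edgeR adjusted p = 0.0231). Mmp14, which sits on the cell surface, was at 564 and 450 CPM in controls and at 195 and 150 CPM with IL-27, and the groups did not overlap. It fell by 1.55 on the log2 scale (SE 0.34, edgeR adjusted p = 0.0203).

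Of these, Mmp3 was called with every setting tried, and Mmp13 and Mmp14 were not. After correction for GC content and length, which left 8.62% of genes called, Mmp3 had a log2 fold change of 3.25 (edgeR adjusted p = 0.0387), Mmp13 of 0.76 (adjusted p = 0.214) and Mmp14 of -0.24 (adjusted p = 0.719). Mmp2 gained a call under that correction, with a log2 fold change of 1.82 (edgeR adjusted p = 0.0115), whereas its uncorrected value was 0.18 from 53.6 and 55.7 CPM in controls and 55.8 and 68.4 CPM with IL-27. GC content was 41.7% for the Mmp13 transcript, 45.9% for Mmp3, 54.3% for Mmp14 and 55.3% for Mmp2. Among tested genes in its own decile by GC content, Mmp3 lay at percentile 98.1, Mmp2 at 91.2, Mmp13 at 85.6 and Mmp14 at 32.8 by fold change. With 1 tumor left out, the call of Mmp13 was lost without control tumor 1 (log2 fold change 1.57, edgeR adjusted p = 0.104) and without IL-27 tumor 2 (1.41, adjusted p = 0.138). The call of Mmp14 was lost without IL-27 tumor 1 (-1.76, edgeR adjusted p = 0.0769) and without IL-27 tumor 2 (-1.39, adjusted p = 0.189).

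**Figure D3:**
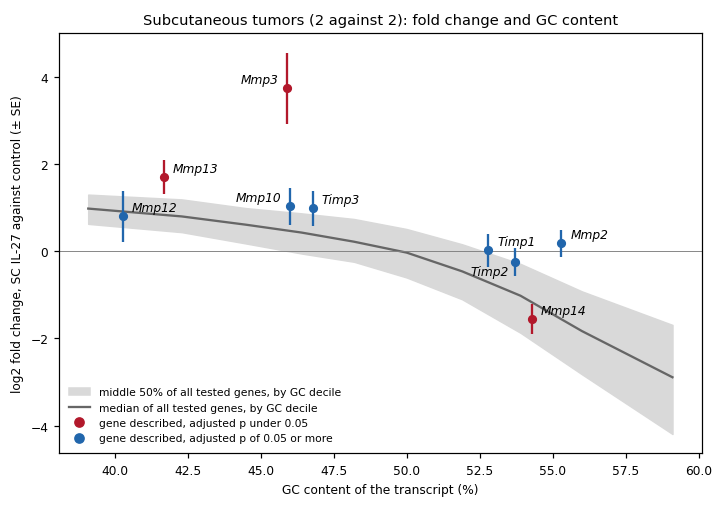
Log2 fold change of IL-27 against control subcutaneous tumors on the vertical axis against transcript GC content (%) on the horizontal axis, with a line at the median and a band over the middle 50% of genes, both by decile of GC content, and the 9 named genes as points with SE bars. The medians fall from 0.98 to -2.89, Mmp3 lies far above the median at its GC content, and Mmp14 lies close to it.

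The other 6 genes were not called by edgeR in subcutaneous tumors without the GC correction, and DESeq2, which called 31.9% of all genes, called 4 of the 9, the same 3 and Timp3 (log2 fold change 1.07, DESeq2 adjusted p = 0.0402). Mmp10 was at 20.7 and 10.8 CPM in controls and 36.4 and 28.2 CPM with IL-27 (log2 fold change 1.03, SE 0.43, edgeR adjusted p = 0.134), and Timp3, the inhibitor that binds to the matrix, at 110 and 136 CPM against 169 and 319 CPM (0.99, SE 0.40, adjusted p = 0.13). In both genes the groups did not overlap, and 7 of the 9 genes had groups that did not overlap, against 66.9% of all genes, and 5 had an unadjusted p under 0.05, against 35.4%. Mmp12 (44 and 28.2 CPM in controls, 27.6 and 97.8 CPM with IL-27) and Timp1 (84.4 and 47.1 CPM, and 73.8 and 59.5 CPM) had groups that overlapped. Timp2 was at 851 and 874 CPM in controls and 792 and 655 CPM with IL-27. After the GC correction the log2 fold change was 0.54 for Mmp10, 0.57 for Timp3, -0.34 for Mmp12, 0.87 for Timp1 and 0.81 for Timp2, and edgeR called none of these 5. The median log2 fold change of the 9 genes without the correction was 0.8 and that of all genes 0.04.

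By length-scaled level, the proteases made up different shares in the control and IL-27 tumors, in values that carry no GC correction. Mmp14 made up 70.4% and 61.6% of the summed RPKM of the 6 MMPs in control tumors and 18.3% and 9.86% in IL-27 tumors. Mmp3 made up 2.18% and 13.7% in control tumors and 53.5% and 65.6% in IL-27 tumors. The 3 TIMPs together had 2.43 and 2.4 times the RPKM of the 6 MMPs in control tumors and 1.72 and 1.07 times in IL-27 tumors. The GC correction took the log2 fold change of Mmp14 from -1.55 to -0.24 and that of Mmp2 from 0.18 to 1.82, and both enter these sums.

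Genes around the protease system moved in both directions in subcutaneous IL-27 tumors. Among the other MMPs, 1 of 11 tested rose and 5 fell, among them Mmp27 (log2 fold change 3.99, SE 0.93, edgeR adjusted p = 0.0255), Mmp15 (-2.70, SE 0.44, adjusted p = 0.00668) and Mmp23 (-2.72, SE 0.45, adjusted p = 0.00709), and 0 of these 6 calls remained after the GC correction, with corrected values of 3.14 for Mmp27 (edgeR adjusted p = 0.0621), 0.00 for Mmp15 and -0.10 for Mmp23. Mmp25, named after its values were seen, gained a call (1.53 uncorrected, 2.46 corrected, edgeR adjusted p = 0.0476). Among 9 tested genes of proenzyme activation and clearance, Serpinb2 rose before the correction (1.41, and 0.33 with edgeR adjusted p = 0.559 after it) and 4 fell, led by Lrp1, a receptor that clears MMP and TIMP complexes (log2 fold change -5.06), the proprotein convertase Furin (-4.77) and the urokinase receptor Plaur (-3.18). The calls of these 3 remained, at -2.72, -2.97 and -2.42, and Plat, named after its values were seen, gained one (-0.75 uncorrected, -1.28 corrected, edgeR adjusted p = 0.0301). Of 15 ADAM and ADAMTS proteases 2 rose and 3 fell, with Adam15 at -4.88, Adamts14 at -3.25 and Adam8 at -2.59. After the correction these were -2.47, -0.56 and -1.06, of which Adam15 was called, and the 2 that rose, Adamts5 and Adamts15, were called too (2.23 and 3.81). Of 13 inducers of MMP transcription, 2 rose and 2 fell, with Fosl1 at -5.74, Junb at -4.56 and Il6 at 2.85. After the correction Fosl1 (-3.22) and Il1b (1.82) were called and Junb (-1.50) and Il6 (1.70) were not, and Fosl2, named after its values were seen, gained a call (0.74 uncorrected, 1.52 corrected, edgeR adjusted p = 0.0278). Among 4 other inhibitors A2m, which traps proteases, rose by 3.67, and among 11 tested substrates 4 collagen genes fell, led by Col4a2 (-2.24), Col4a1 (-2.22) and Col5a1 (-1.85), and 0 of these 5 calls remained, with corrected values of 3.46 for A2m, 0.59 for Col4a2, 0.07 for Col4a1 and 0.52 for Col5a1.

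Markers of the implanted line and of other cells moved in the same libraries. Of 6 tested genes of the epithelial and line list, Krt8 fell from 44.1 to 3.14 CPM (log2 fold change -3.81, edgeR adjusted p = 0.00983) and Hras from 32.7 to 2.2 CPM (-3.89, adjusted p = 0.00371), and after the GC correction Hras alone was called (-2.24, adjusted p = 0.0227). Of 9 fibroblast genes 3 were called higher and 2 lower (a mean log2 CPM of 8.19 to 8.76 against 8.14 to 8.3), and 0 after the correction. Of 12 skeletal muscle genes 11 were called higher in IL-27 tumors, with a mean log2 CPM of 4.11 to 5.43 against -2.57 to -0.57, and all 11 were called after the GC correction too. Of 8 neutrophil genes 5 were called higher (2.05 to 2.26 against -1.96 to -1.55), again 5 after the correction. Of 8 macrophage genes 3 were called lower and 0 higher (4.41 to 5.74 against 6.13 to 6.15), and 0 were called after the correction. Before it, 2 macrophage genes were higher at an unadjusted p under 0.05. These were Adgre1 (116 CPM in controls, 222 CPM with IL-27) and Mrc1 (240 and 691 CPM). The part of these cells in the values of Mmp3, Mmp13 and Mmp14 was not tested.

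In bone, the day 14 comparisons addressed the treatments at the end of dosing. By edgeR's fold change, Mmp13 had the largest difference of the 9 genes in both cabo groups. By mean log2 CPM, Mmp12 differed more with cabo (5.35 against 4.01 in controls) than Mmp13 did (3.18 against 4.42). Mmp13 was at 17.6, 24.8 and 22.4 CPM in the control tumors M3, M5 and M7. It was at 9.2, 6.43 and 12.4 CPM in the cabo tumors M21, M25 and M27, and at 4.76, 3.9 and 4.87 CPM in the IL-27+cabo tumors M20, M22 and M24. All 3 cabo tumors lay below all 3 controls, and all 3 IL-27+cabo tumors lay below all 3 cabo tumors. With IL-27 alone, tumors M4, M6 and M8 were at 11.4, 43.6 and 16.9 CPM, a range that held the controls.

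None of these differences was called by edgeR over all genes. The log2 fold change of Mmp13 with cabo was -1.23 (SE 0.25, n = 3 and 3, edgeR adjusted p = 0.056), and with IL-27+cabo it was -2.24 (SE 0.27, edgeR adjusted p = 0.0623). These comparisons share the control tumors. With cabo, 0 of the 9 genes were called by edgeR where 1.89% of 18627 genes were, 1 of the 9 had an unadjusted p under 0.05 against 18.9% of all genes, 1 had groups that did not overlap against 26.9%, and DESeq2, which called 8.04% of all genes, called 1, Mmp13 (DESeq2 adjusted p = 4.74e-05). With IL-27+cabo, 0 were called by edgeR where 0.064% of genes were, 1 had an unadjusted p under 0.05 against 6.2%, 1 had groups that did not overlap against 15.1%, and DESeq2, which called 2.58% of all genes, called Mmp13 (log2 fold change -2.25, DESeq2 adjusted p = 1.61e-12). Without M20 the fold change of Mmp13 with IL-27+cabo was -2.31 and it was called by edgeR (adjusted p = 0.014), as were 0.899% of all genes. Mmp13 was also called with all intratibial groups in 1 fit (-2.26, edgeR adjusted p = 0.0201), where 0.445% of all genes were. With any other tumor left out edgeR called 0 of the 9 genes. It also called 0 with RLE scaling, with no filter and with counts divided by 4.

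**Figure D4:**
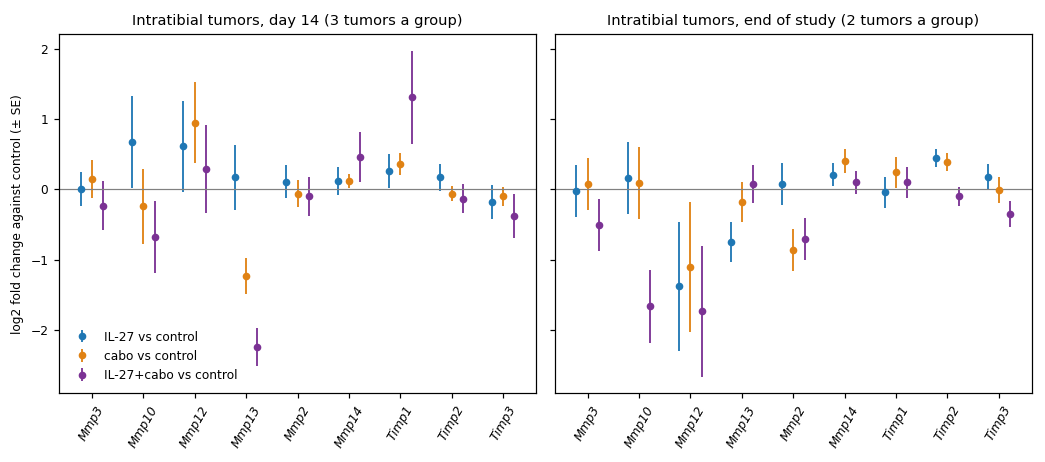
Log2 fold change against control (points) and SE (bars) of each of the 9 genes under each of the 3 treatments (by colour), on day 14 in the left panel and at EOS in the right. Mmp13 has the lowest value on day 14 with cabo (-1.23) and with IL-27+cabo (-2.24), and a value of 0.07 at EOS with IL-27+cabo.

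Adding IL-27 to cabo gave a log2 fold change of Mmp13 of -1.01 (SE 0.31, edgeR adjusted p = 0.788) and of Mmp12 of -0.66 (SE 0.25, edgeR adjusted p = 0.788) against cabo alone, and without M20 these were -1.08 and -0.56. These 2 genes were those of the 9 whose groups did not overlap, against 12.5% of all genes, and 0 of the 9 were called by edgeR where 0% of 18662 genes were, 2 had an unadjusted p under 0.05 against 1.92%, and DESeq2 called 0. Adding cabo to IL-27 gave -2.43 for Mmp13 (SE 0.54, edgeR adjusted p = 0.907), -1.66 without M6 and -2.47 without M20. There too 0 genes were called by edgeR where 0% were, 1 had an unadjusted p under 0.05 against 4.85%, 1 had groups that did not overlap against 12.5%, and DESeq2 called Mmp13 and 0.899% of all genes. The difference that IL-27 made with cabo, less the difference it made without cabo, was -1.20 for Mmp13 (SE 0.61, edgeR adjusted p = 0.952), with 0 of the 9 genes called by edgeR where 0% of genes were, 0 at an unadjusted p under 0.05 against 1.88% and 0 by DESeq2. In M6, an IL-27 tumor in this contrast, Mmp13 was at 43.6 CPM, against 11.4 and 16.9 CPM in M4 and M8. The contrast was not fitted without M6.

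Scores of other cells also differed between the day 14 groups. The muscle score, the mean log2 CPM of the 12 muscle genes, was -1.82 to 2.95 in control tumors, 5.81 to 6.31 with cabo and 6.08 to 8.22 with IL-27+cabo. With IL-27 alone it was 0.59 to 6.87, highest in M8, which held 16.9 CPM of Mmp13. With that score as a covariate the Mmp13 difference with IL-27+cabo was -2.81 (edgeR adjusted p = 1), in a fit that called 0 of 18750 genes. With cabo the same covariate left 0 of 18627 genes called. The endothelial score of 7 genes was 4.65 to 5.3 in controls, 3.68 to 4.05 with cabo and 3.22 to 3.9 with IL-27+cabo, and with cabo 3 of 7 endothelial genes were called lower. Of 8 tendon and synovium genes 4 were called higher with cabo, and of 9 osteoclast genes 1, Acp5, was called lower. Of 9 fibroblast genes 1 was called higher with cabo, with a score of 8.47 to 8.54 against 8.2 to 8.32 in controls. The osteoblast score was -0.62 to -0.35 with cabo against -0.89 to -0.65, and the chondrocyte score -2.28 to -1.43 against -1.42 to -1.1. In these last lists 0 genes were called. With IL-27+cabo the fibroblast, osteoblast and chondrocyte scores overlapped those of controls. The part of these in the level of Mmp13 was not tested.

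Among the inhibitors on day 14, Timp1 was at 36.6, 48.8 and 37.5 CPM in controls and at 58.8, 43.8 and 58 CPM with cabo (log2 fold change 0.36, edgeR adjusted p = 0.266). With IL-27+cabo it was at 210 CPM in M20 and at 46.1 and 41.1 CPM in M22 and M24. The log2 fold change was 1.31 (SE 0.66, edgeR adjusted p = 0.807) with M20 and 0.07 (adjusted p = 0.87) without it. M20 also held the highest Mmp14 level of all tumors, 1080 CPM against 546 and 524 CPM in its group mates, and the log2 fold change of Mmp14 was 0.46 with M20 and 0.00 without it. Timp2 was at 740 to 1150 CPM and Timp3 at 62.9 to 147 CPM over the 12 day 14 tumors, and Mmp2 at 151 to 259 CPM. In none of these 3 genes did a treated group separate from the control group.

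IL-27 alone on day 14 gave values of the 9 genes between -0.18 and 0.67 on the log2 scale. No gene of the 9 was called by edgeR, where 0% of 18519 genes were, 0 had an unadjusted p under 0.05 against 2.76%, 0 had groups that did not overlap against 7.78%, and DESeq2 called 0. Mmp10 was at 77, 217 and 42.6 CPM with IL-27 and at 27.5, 79.1 and 108 CPM in controls. Tumor M6 held the highest Mmp10 and Mmp13 of all intratibial tumors.

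Among related genes on day 14, the genes that rose with cabo were Lrp1 (log2 fold change 1.02, edgeR adjusted p = 0.0235), Il1b (1.50, adjusted p = 0.0416), Fn1 (0.91, adjusted p = 0.0234) and Col3a1 (0.64, adjusted p = 0.0376). Those that fell were Tfpi2, an inhibitor of matrix-degrading serine proteases (0.501 times the control level, edgeR adjusted p = 0.0194), and the membrane-type protease gene Mmp15 (-1.64, adjusted p = 0.0291). These were 1 of 9 activation genes, 1 of 13 inducers, 2 of 12 substrates, 1 of 4 inhibitors and 1 of 12 other MMPs tested, and 0 of 15 ADAM and ADAMTS genes were called. With IL-27+cabo 0 genes of these 6 lists were called by edgeR.

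At EOS, after dosing had ended, Mmp13 was at 15.8 and 12.7 CPM in controls (M13 and M9), 10.8 and 6.31 CPM with IL-27 (M10 and M12), 14 and 11.1 CPM with cabo (M19 and M23) and 14.7 and 15.5 CPM with IL-27+cabo (M16 and M28). Both IL-27+cabo tumors thus lay above all 3 of the same treatment on day 14 and within the range of the EOS controls. The log2 fold change from day 14 to EOS with IL-27+cabo was 1.71 (SE 0.34, n = 3 and 2, edgeR adjusted p = 0.475, DESeq2 adjusted p = 5.75e-04), and 1.77 without M20. In that comparison 0 of the 9 genes were called by edgeR where 0% of genes were, 1 had an unadjusted p under 0.05 against 3.83%, 5 had groups that did not overlap against 22.3%, and DESeq2 called 1 of the 9 and 1.7% of all genes. The other 8 genes had log2 fold changes below 0, from -0.32 to -1.70, and the median of the 9 was -0.58, against -0.04 over all genes. Of these 8, the groups did not overlap in Mmp10 (33.5 to 58 CPM on day 14, 7.86 and 25.1 CPM at EOS, log2 fold change -1.45), Mmp14 (524 to 1080 CPM, 418 and 475 CPM, -0.73), Timp1 (41.1 to 210 CPM, 24.4 and 40 CPM, -1.70) and Timp2 (778 to 798 CPM, 610 and 683 CPM, -0.32), with an edgeR adjusted p of 0.925 each. Without M20 the log2 fold changes were -1.17 for Mmp10, -0.27 for Mmp14, -0.45 for Timp1 and -0.30 for Timp2. The muscle score was 6.08 to 8.22 on day 14 and 1.36 to 3.31 at EOS with IL-27+cabo, and the endothelial score 3.22 to 3.9 and 5.27 to 5.35. The osteoclast score was 2.22 to 2.66 on day 14 and 3.68 to 3.79 at EOS, with 6 of 9 genes higher at an unadjusted p under 0.05 and 0 called by edgeR. The tendon and synovium score was 0.08 to 2.19 on day 14 and -0.72 to -0.28 at EOS, with 3 of 7 tested genes lower at an unadjusted p under 0.05. For neutrophil genes the score was -1.73 to -1.09 and -3.27 to -1.99, with 1 of 6 tested genes lower. In both lists 0 genes were called. The part of these in the levels of Mmp13, Mmp10, Mmp14, Timp1 and Timp2 was not tested.

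The day 14 and EOS differences of Mmp13 were compared in 1 fit of all 20 tumors. The difference of IL-27+cabo from control was 2.34 higher on the log2 scale at EOS than on day 14 (SE 0.62, edgeR adjusted p = 0.323, DESeq2 2.30 with adjusted p = 0.0328). The same comparison gave 1.03 for cabo (SE 0.61, edgeR adjusted p = 1). No gene of the 9 was called by edgeR for IL-27, cabo or IL-27+cabo, where 0%, 0.0788% and 0.0788% of genes were, and 0, 0 and 1 had an unadjusted p under 0.05, against 1.93%, 4.11% and 9.14%. DESeq2 called 0, 0 and 1, the last where it called 0.914% of all genes. Of 7 endothelial genes 2, Kdr and Emcn, were called higher in the IL-27+cabo comparison. Mmp15 was called in the same fit for cabo, with a change of 2.56 (edgeR adjusted p = 0.0322), and for IL-27+cabo, with 2.58 (adjusted p = 0.0343).

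Within the other treatments edgeR called 0 of the 9 genes between day 14 and EOS. In controls 0.104% of 19292 genes were called, 3 of the 9 had an unadjusted p under 0.05 against 13.1% of all genes, 4 had groups that did not overlap against 33.5%, and DESeq2 called 0 of the 9. Those 3 were Mmp13 (-0.59, SE 0.21, edgeR adjusted p = 0.313), Timp1 (-0.46, SE 0.17, adjusted p = 0.34) and Timp3 (-0.53, SE 0.19, adjusted p = 0.32). With IL-27, 0% of genes were called, 2 of the 9 had an unadjusted p under 0.05 against 5.05%, 3 had groups that did not overlap against 24.3%, and DESeq2 called 0. Mmp13 had a log2 fold change of -1.48 there (SE 0.59, edgeR adjusted p = 0.818), and -0.72 without M6, and Timp1 had -0.72 (SE 0.27, adjusted p = 0.818). The osteoclast score of 9 genes was 2.57 to 2.98 on day 14 and 3.6 to 4.4 at EOS in controls, and 1.86 to 2.57 and 3.45 to 3.53 with IL-27, with 5 and 6 of its genes higher at EOS at an unadjusted p under 0.05 and 0 called by edgeR. The muscle score was -1.82 to 2.95 on day 14 and -1.83 to -1.18 at EOS in controls, and 0.59 to 6.87 and -1.19 to -0.24 with IL-27, with 3 of 11 tested and 12 of 12 muscle genes lower at an unadjusted p under 0.05 and 0 called. The neutrophil score with IL-27 was -1.55 to -1.36 on day 14 and -3.37 to -3.06 at EOS, with 4 of 7 tested genes lower at an unadjusted p under 0.05 and 0 called. In controls 4 of 9 fibroblast, 3 of 8 macrophage and 3 of 7 tested tendon and synovium genes were lower at EOS at an unadjusted p under 0.05. With IL-27 these counts were 2, 0 and 2, and edgeR called 0 in either treatment. The part of these in the values of Mmp13, Timp1 and Timp3 was not tested.

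With cabo, Mmp2, Timp1 and Timp3 stood lower at EOS than on day 14. Mmp2 was at 223, 199 and 218 CPM on day 14 and at 130 and 162 CPM at EOS (log2 fold change -0.53, SE 0.11, edgeR adjusted p = 0.0712). Timp1 was at 36.5 and 34.2 CPM at EOS (-0.57, SE 0.14, adjusted p = 0.109), and Timp3 was at 112, 120 and 117 CPM on day 14 and at 93.5 and 76 CPM at EOS (-0.44, SE 0.10, adjusted p = 0.088). In all 3 the groups did not overlap, as in 36.6% of all genes. By edgeR 0 of the 9 genes were called where 2.09% of 19144 genes were, 3 had an unadjusted p under 0.05 against 17.6%, and DESeq2, which called 9.08% of all genes, called these 3. With 1 tumor left out, Timp1 was called by edgeR without M25 (-0.70, adjusted p = 0.0264) and Timp3 without M19 (-0.59, adjusted p = 0.032). In the same comparison 5 of 13 inducers of MMP transcription fell and 1 rose, with Il1b at -2.83 (edgeR adjusted p = 0.00181), Fosl2 at -0.56 (adjusted p = 0.0237) and Junb at -0.61 (adjusted p = 0.0286). Mmp15 rose by 2.11 (edgeR adjusted p = 0.0109). Of 12 substrates, Col4a1 (0.87) and Col4a2 (0.88) rose and Col3a1 fell by 0.87. Of the markers, 3 of 9 fibroblast genes, 3 of 8 tendon and synovium genes and 1 of 8 macrophage genes were called lower at EOS, and 5 of 7 endothelial genes higher. The fibroblast score was 8.47 to 8.54 on day 14 and 8.03 to 8.08 at EOS, the tendon and synovium score 1.55 to 1.63 and -2.01 to -0.31, and the endothelial score 3.68 to 4.05 and 5.23 to 5.48. The neutrophil score of 8 genes was -1.78 to -0.53 on day 14 and -3.54 to -3.2 at EOS, with 6 of 7 tested genes lower at an unadjusted p under 0.05 and 0 called. Their part in the values of Mmp2, Timp1 and Timp3 was not tested.

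At EOS the treatments were compared with the same 2 control tumors, and edgeR called 0 of the 9 genes, where 0% of 20026 genes were called with IL-27, with cabo and with IL-27+cabo. Mmp10 was at 25.1 and 7.86 CPM with IL-27+cabo and at 68.2 and 35.7 CPM in controls, with groups that did not overlap. Its log2 fold change was -1.66 (SE 0.52, n = 2 and 2, edgeR adjusted p = 0.248), and DESeq2, which called 4.68% of all genes, called it (-1.67, adjusted p = 0.011). By edgeR it was -2.75 without M16 and -1.05 without M28. It was the 1 gene of the 9 with an unadjusted p under 0.05 there, against 14.2% of all genes. Groups did not overlap in 2 of the 9 genes with IL-27+cabo against 42.2% of all genes, in 4 with cabo against 43%, and in 2 with IL-27 against 32.8%. With cabo, 3 genes had an unadjusted p under 0.05 against 8.9%, Mmp2 (-0.86, SE 0.30, edgeR adjusted p = 0.507), Mmp14 (0.40, SE 0.17, adjusted p = 0.552) and Timp2 (0.39, SE 0.13, adjusted p = 0.485), and DESeq2 called 0. Mmp2 was at 176 CPM in M13 and 350 CPM in M9, the controls, and at 130 and 162 CPM with cabo, and its log2 fold change was -0.26 without M9 and -1.27 without M13. Mmp14 was at 346 and 481 CPM in M13 and M9 and at 560 and 532 CPM with cabo, and its log2 fold change was 0.66 without M9 and 0.17 without M13. With IL-27, 2 genes did against 3.25%, Mmp13 (-0.75, SE 0.28, edgeR adjusted p = 1) and Timp2 (0.45, SE 0.13, adjusted p = 1), and DESeq2 called 0. Mmp13 with IL-27 was -1.18 without M10 and -0.40 without M12. The muscle score was -1.83 to -1.18 in EOS controls, 2.45 to 5.38 with cabo and 1.36 to 3.31 with IL-27+cabo, with 12 and 11 of 12 genes higher at an unadjusted p under 0.05 and 0 called by edgeR. The osteoclast score was 3.6 to 4.4 in EOS controls and 2.26 to 3.27 with cabo, with 5 of 9 genes lower at an unadjusted p under 0.05 and 0 called, and the neutrophil score -2.25 to -0.3 and -3.54 to -3.2, with 4 of 6 tested genes lower and 0 called. With cabo, 2 of 7 endothelial, 2 of 8 macrophage and 2 of 7 tested tendon and synovium genes were higher at an unadjusted p under 0.05. With IL-27+cabo these counts were 3, 2 and 3, and 1 endothelial gene was lower, with 0 called in either treatment. The part of these in the values of the 9 genes was not tested. Mmp12 varied most among the EOS controls, from 17.3 CPM in M13 to 87.8 CPM in M9, the highest level of all intratibial tumors.

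Among the 20 intratibial tumors, the summed RPKM of the 3 TIMPs was between 0.858 (M9) and 1.6 times that of the 6 MMPs, and M9 was the only one with a ratio under 1. Over all 23 MMP genes, Mmp9 among them, and all 4 TIMP genes the ratio was between 0.418 (M9) and 1.29, and 9 of the 20 tumors had a ratio under 1. In M20 the TIMP sum was 444 RPKM, of which Timp1 made up 53.3%. In the other 19 intratibial tumors Timp2 made up at least 69.5% of the sum.

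**Figure D5:**
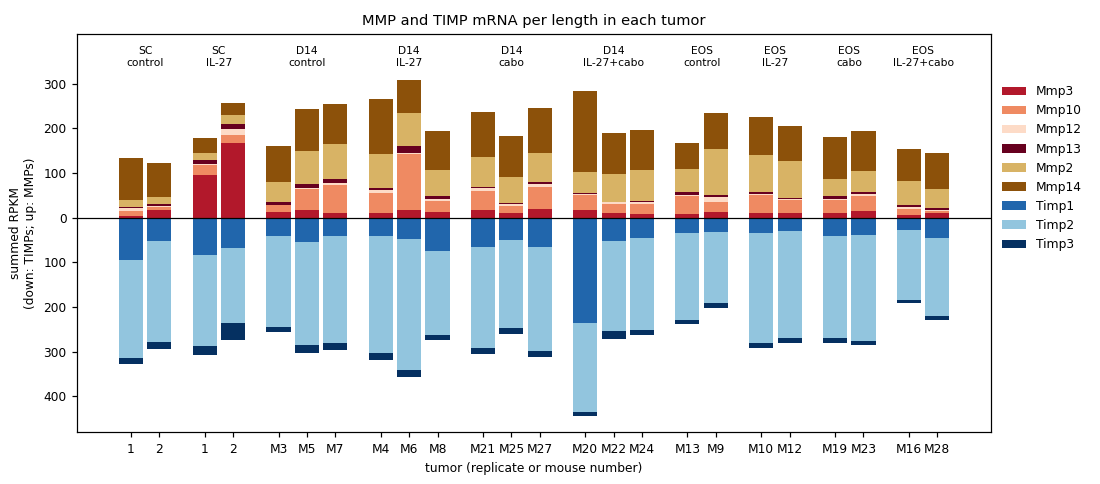
Summed length-scaled level (RPKM) in each tumor as stacked bars, the 6 MMP genes upward and the 3 TIMP genes downward from 0. Mmp3 fills 53.5% and 65.6% of the MMP bar in subcutaneous IL-27 tumors, and Timp1 fills 53.3% of the TIMP bar of M20, the longest at 444 RPKM.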

How the data were processed

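The authors trimmed paired reads of stranded poly(A) libraries (cutadapt), mapped them to the mouse genome (HISAT2), and the deposited table holds raw integer counts for each Ensembl identifier. The submitters' processing notes also name FastQC, StringTie and DESeq2 and the build GRCh38, a human build, although the identifiers are mouse genes. The counting program and annotation are not given in the sources used here. Between 30.4% and 35.5% of values from 1 to 20 in each library were multiples of 4, and this was not explained by any source used here. Names and coordinates are those of GENCODE M21, which held 55141 of the 55401 identifiers.

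Subcutaneous and intratibial tumors were normalized apart with TMM in edgeR 4.0.16 (R 4.3.3). Genes passing filterByExpr entered edgeR's two-sided quasi-likelihood test, and p-values were adjusted by Benjamini-Hochberg over all genes tested. A fit held the groups compared, except that the 4 EOS groups shared a fit, the IL-27 difference with and without cabo came from a fit of the 4 day 14 groups, and each change from day 14 to EOS came from a fit of the 20 intratibial tumors. Log2 CPM used a prior count of 2. DESeq2 1.42.0 was an alternative, as were RLE scaling, no filter, counts divided by 4, all intratibial groups in 1 fit, spline curves of 5 degrees of freedom for GC content and length, a muscle covariate, the study's fold limits, leaving out each tumor, and the replicate number as a block. The code was tested on simulated data. Intratibial tumors of a group came from separate mice, and for subcutaneous tumors no source says whether they did, so their p-values measure only the spread between these samples.

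The 9 genes and the lists of related genes and markers were chosen with earlier results of these data known. From each related list at most 3 genes with the smallest p among those called were named (Serpinb2, Mmp25, Plat, Adamts5, Adamts15, Il1b and Fosl2 in subcutaneous tumors were added after their values were seen), and for each of the 9 genes the 3 genes with the highest Pearson's r over the intratibial tumors. The changes for IL-27 and IL-27+cabo, the IL-27 difference with and without cabo, the sums of MMPs and TIMPs, the correlations without M20, and the GC correction of related lists and markers were chosen after seeing the data.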

Additional observations from a re-analysis of the deposited data

Results flagged for a closer look

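For 3 of 36 pairs of differences from control (2 sites or 2 harvests), all tumors of a treatment lay above the control mean in 1 setting and all below it in the other. This rule was not run over all genes, so there is no share to set beside 3 of 36. None of the 3 passed the edgeR test of the difference itself after adjustment over all genes. Mmp13 with IL-27+cabo had a log2 difference from control of -2.24 on day 14 and 0.07 at EOS (edgeR interaction, adjusted p = 0.323).

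Mmp12 with cabo had a log2 difference of 0.95 on day 14 and -1.1 at EOS (edgeR interaction, adjusted p = 1), and with IL-27+cabo of 0.29 on day 14 and -1.73 at EOS (edgeR interaction, adjusted p = 0.558). Both EOS values are set against controls of which M9 held 87.8 CPM of Mmp12 and M13 held 17.3 CPM, and without M9 they were 0.51 with cabo and -0.11 with IL-27+cabo. The day 14 values are set against controls of which M3 held 4.94 CPM and M5 and M7 held 25.4 and 33 CPM, and without M3 they were 0.47 with cabo and -0.19 with IL-27+cabo.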

How the results depend on the processing

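Most values kept their direction. Of 153 differences of the 9 genes over all comparisons, 54 changed sign under some setting, and 0 of these had an unadjusted p under 0.05 in edgeR. Of the 3 called differences, 2 lost the call under some setting (Mmp13 and Mmp14, subcutaneous), and of 150 uncalled differences 11 were called under some setting. With DESeq2, 4 of the 9 genes were called in subcutaneous tumors (Timp3 beside the 3 called by edgeR), against 31.9% of all genes. It called 1 on day 14 with cabo (8.04% of all genes), 1 with IL-27+cabo against control (2.58%) and 1 against IL-27 (0.899%), 3 from day 14 to EOS with cabo (9.08%), 1 from day 14 to EOS with IL-27+cabo (1.7%), 1 at EOS with IL-27+cabo (4.68%), and 1 for the IL-27+cabo change (0.914%), where edgeR called 0 each. With the study's limits 5 were called in subcutaneous tumors, against 35.4% of all genes, and 1 each on day 14 with IL-27+cabo against control (3.64%) and against IL-27 (2.36%), from day 14 to EOS with IL-27+cabo (3.16%), and at EOS with IL-27+cabo (3.6%). All intratibial groups in 1 fit called 1 on day 14 with IL-27+cabo against control (0.445% of all genes) and 1 against IL-27 (0.218%), the GC correction called 1 on day 14 with IL-27+cabo (0.192%), and counts divided by 4 called 1 on day 14 with cabo (3.37%). Leaving out 1 tumor gave 1 to 3 genes called in subcutaneous tumors, against 10% to 24.9% of all genes, 0 to 1 on day 14 with IL-27+cabo against control (0% to 0.899%), and 0 to 1 from day 14 to EOS with cabo (0.331% to 2.18%). With the muscle score as a covariate, signs turned for Timp1 with cabo (-0.07) and for Timp1 (-0.70) and Mmp14 (-0.50) with IL-27+cabo on day 14, and leaving out tumors took Mmp14 with IL-27+cabo to between 0.00 and 0.64. The cause of these changes was not tested.

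Counts over all genes moved more. In subcutaneous tumors 3880 genes were called by edgeR, 6172 by DESeq2, 1668 with the GC correction and 2389 with that correction and the replicate number as a block. On day 14 with cabo 352 were called, 1497 by DESeq2, 101 with no filter, 40 with all groups in 1 fit and 0 with the muscle covariate, and with IL-27+cabo 12, and 483 by DESeq2, 96 in 1 fit and 175 without M20. From day 14 to EOS with cabo 400 were called and 1739 by DESeq2. The labels number the replicates of subcutaneous tumors and name no pairs. The correlation of same-numbered deviations was 0.0313, which with 2 tumors a group cannot settle whether the numbers mark pairs. With the replicate number as a block edgeR called 3 of the 9 genes (Mmp3 4.17, Mmp13 1.70 and Mmp14 -1.56) and 4248 genes in all, 21.9%, and with the block and the GC correction 2 (Mmp2 1.82 and Mmp3 3.66) and 12.3% of all genes. Intratibial groups share no mouse numbers. With 2 or 3 tumors a group, an exact permutation test cannot go below 0.333 or 0.1.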

Other observations

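Genes whose log2 CPM followed each of the 9 most closely over the 20 intratibial tumors were picked from 21563 genes, so high values of r are a description of these tumors, which share treatment, harvest and cell make-up. For Mmp13 they were Tfpi2 (Pearson's r = 0.828), Ssrp1 (0.827) and Prkra (0.816). Tfpi2 was also called lower with cabo on day 14. For Mmp10 they were Slc20a1 (0.876), Ctsb (0.859) and Has1 (0.856), for Mmp12 Gm4654 (0.897), Egln1 (0.886) and Pgm1 (0.882), and for Mmp3 Anxa6 (0.76), Gm13690 (0.743) and Ggh (0.739). For Mmp2 they were Tmem39a (0.853), Gm26109 (0.822) and Dlg4 (0.813), and for Mmp14 Pdlim7 (0.907), Tgfb1i1 (0.853) and Ctxn1 (0.852). For Timp1 they were Fbxw4 (0.933), Dbnl (0.93) and Ube2r2 (0.928), for Timp2 Map6 (0.826), Dnaja4 (0.809) and Gm2670 (0.793), and for Timp3 Enpp3 (0.855), Nrg1 (0.818) and Ablim1 (0.804). Without M20, whose Timp1 and Mmp14 were the highest of all, r was 0.789, 0.871 and 0.654 for the 3 genes of Mmp14 and 0.786, 0.773 and 0.759 for those of Timp1, and for the other genes named here it lay between 0.726 and 0.906.

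Among pairs of the 9 genes, Mmp14 and Timp1 had a Pearson's r of 0.8 and a Spearman's rho of 0.63, and Mmp10 and Timp2 had 0.76 and 0.73. Without M20 the values were 0.518 and 0.572 for Mmp14 and Timp1 and 0.772 and 0.763 for Mmp10 and Timp2.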
